A study of Mus musculus with 3 samples.

Results

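The 10 genes described here take lipid into the cell, store it or pass it out again: Lpl, Fabp4 and Fabp5 (uptake and transport), Plin2 and Soat1 (storage), Lipa (lysosomal release), Apoe, Abca1 and Abcg1 (efflux), and Pparg (a regulator). They were chosen by name as lipid handling genes and found by gene symbol, and all 10 were present among the 31053 mouse genes counted in each of 3 single-cell RNA libraries. C57/BL6 bone marrow was cultured with GM-CSF over 7 days. Control cells received no further agent (Co-Mac), and treated cells received 1 µM VD3 (1,25 dihydroxy-cholecalciferol, the active hormone form of vitamin D) from day 7 during 24 hours (VD-Mac). GM-CSF was therefore shared by both cultures, and such cultures hold dendritic cells and granulocytes besides macrophages. In the third library (hSTSG), human split-thickness skin had been placed under the skin of C57BL6/J wild-type hosts and left there during 14 days, and the grafts of 5 mice were pooled. The study's methods give collagenase IV for the release of cells from such grafts in their flow cytometry section. Only mouse genes were counted, so human cells of the graft were not measured. The study had set its graft macrophages that express Trem2, a lipid receptor of macrophages, beside the VD3 culture, and the question asked here is which steps of lipid handling were alike in the 2 settings.

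A macrophage that clears dead cells or lipoproteins receives more lipid than it can burn. Lipoprotein lipase (Lpl) cuts triglyceride into fatty acids, and the binding proteins Fabp4 and Fabp5 carry these in the cytosol. Cholesterol esters that arrive in the lysosome are split by the acid lipase Lipa, cholesterol is re-esterified by Soat1, and droplets of stored lipid are coated by Plin2. Surplus cholesterol is exported by the transporters Abca1 and Abcg1 to acceptors such as apolipoprotein E (Apoe). Pparg is a nuclear receptor for fatty acid ligands, and the oxysterol receptors of the LXR family are known activators of Abca1, Abcg1 and Apoe.

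Each condition was 1 library, so there was no replicate, and no p-value was computed. Levels are UMI counts (distinct transcript molecules) summed over cells and given as CPM (counts per 1e6 UMIs). Their intervals are 95% exact Poisson intervals and, for ratios, exact conditional binomial intervals, and both cover counting error alone. A gene was called higher or lower at a 2-fold difference with at least 10 CPM in the higher group. The libraries kept 7257 Co-Mac, 8825 VD-Mac and 2144 hSTSG cells, with medians of 15804, 12089 and 6637.5 UMIs per cell and totals of 132574308, 116461484 and 22646544 UMIs. Between 3 and 15 cell barcodes were shared by any pair of libraries. Cell classes were rebuilt by clustering without these 10 genes or 46 further lipid genes and named from markers, so they may differ from those of the study. In hSTSG, 331 cells formed a cluster led by Gpnmb, Mmp12, Spp1 and Trem2 and were called Trem2 macrophage-like. A further 298 cells were resident macrophage-like, 337 monocyte-like and 145 formed an unnamed cluster with dendritic and B-lineage genes, and together these 780 cells are called the other monocyte-lineage cells. The cultures held 2110 Co-Mac and 1832 VD-Mac macrophage-like cells, each with a cycling and a non-cycling cluster. A further culture cluster (279 Co-Mac and 406 VD-Mac cells) led by Gpnmb and Cd36 had the Trem2 macrophage markers as its best set (score 0.52, below the 1.17 of the non-cycling macrophage-like cluster) and scored -0.08 for the general macrophage markers, and it was kept out of the macrophage-like class. Dendritic cell markers summed in it to 2214 CPM in Co-Mac and 1894 CPM in VD-Mac, against 283 and 185 CPM in macrophage-like cells. Its median of 29560 UMIs per cell was the highest of the culture clusters. The 6 markers of Trem2 macrophages summed to 24791 CPM in the graft Trem2 macrophage-like cells, to 5867 CPM in Co-Mac and to 3158 CPM in VD-Mac macrophage-like cells. The largest part was Spp1 in the graft (15311 CPM) and VD-Mac (1072 CPM) and Mmp12 in Co-Mac (3444 CPM). These sums are therefore not levels of Trem2 itself. A Trem2 UMI was found in 1374 VD-Mac macrophage-like cells and 338 graft monocyte-lineage cells. The study reported more Trem2 in VD3-treated cells than in its graft cells.

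The genes lie on 8 chromosomes in the mouse build GRCm38. Fabp5 (chr3:10012548-10016607, plus strand) and Fabp4 (chr3:10204088-10208576, minus strand) are neighbours. Lpl lies at chr8:68880491-68907448 (plus), Plin2 at chr4:86648386-86670060 (minus), Soat1 at chr1:156424525-156474331 (minus), Lipa at chr19:34492318-34527474 (minus) and Pparg at chr6:115360951-115490399 (plus). The efflux genes lie at chr7:19696109-19699188 (Apoe, minus), chr4:53030787-53159895 (Abca1, minus) and chr17:31057675-31117988 (Abcg1, plus).

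Apoe and Abca1 are the efflux genes whose levels were furthest apart between graft and culture, so the 250 bases before their start sites are shown from RefSeq (build GRCm38.p6), read on the minus strand, at chr7:19699189-19699438 for Apoe (1 of its 3 windows) and chr4:53159896-53160145 for Abca1. Capitals mark a match to CACGTG, the E-box, or to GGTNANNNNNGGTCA, a direct repeat of relaxed half-sites at a fixed spacing, of the kind that LXR and its partner RXR bind, each searched on both strands.
Apoe: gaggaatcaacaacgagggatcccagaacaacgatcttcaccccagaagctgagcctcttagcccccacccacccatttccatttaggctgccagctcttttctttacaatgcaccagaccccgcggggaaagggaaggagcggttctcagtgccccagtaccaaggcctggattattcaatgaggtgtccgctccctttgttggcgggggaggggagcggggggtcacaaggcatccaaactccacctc
Abca1: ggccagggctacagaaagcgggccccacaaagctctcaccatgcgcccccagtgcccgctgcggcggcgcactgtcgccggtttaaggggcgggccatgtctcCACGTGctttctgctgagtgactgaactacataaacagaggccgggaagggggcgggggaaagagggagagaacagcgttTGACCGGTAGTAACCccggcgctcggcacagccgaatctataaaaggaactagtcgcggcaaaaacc
Windows of 6 of the 10 genes were searched, those of Plin2, Soat1, Lipa, Apoe, Abca1 and Pparg. The Abca1 window held the direct repeat on its reverse strand, 67 bases before the start, and the E-box 147 bases before it. Of 32851 such windows over all genes, 58 (0.177%) held the direct repeat and 1978 (6.02%) the E-box. The half-site AGGTCA, present in 14.0% of windows, was found before Plin2 and in 2 of the 3 windows of Pparg. The 3 Apoe windows and those of Soat1 and Lipa held none of the 3 motifs. These matches describe the letters alone, and binding was not measured.

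In the cultures, Lpl, Fabp5, Lipa and Apoe were lower with VD3, while the transporters Abca1 and Abcg1 differed less. Lpl stood at 1478 CPM in Co-Mac and 438 CPM in VD-Mac over all kept cells, a 3.37-fold difference. Fabp5 stood at 2685 and 1330 CPM, Lipa at 229 and 98.1 CPM, and Apoe at 26.9 and 9.32 CPM. These were the 4 genes called lower of 9 that reached the minimum level, and none was called higher. Fabp4 was under the minimum, at 4.22 and 0.49 CPM. Fabp5 lay at the limit (log2 -1.01) and inside it at the 5% mitochondrial filter (-0.99) and under scaling by the median gene ratio (-0.93). Of 7732 genes over the same cells, 4.63% were lower and 2.16% higher. The median log2 ratio was -0.79 over the 9 genes and -0.10 over all genes tested. Abca1 (13.9 and 12.6 CPM) and Abcg1 (101 and 88.3 CPM) were close together, at log2 ratios of -0.14 (-0.24 to -0.04) and -0.20 (-0.23 to -0.16).

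Within the macrophage-like cells, 3 genes were called lower and none higher. Lpl had the level furthest apart in CPM, 2394 in Co-Mac and 826 in VD-Mac (log2 ratio -1.54, -1.55 to -1.52). Fabp5 differed by the larger ratio, with 771 and 206 CPM (log2 -1.91, -1.94 to -1.87). Lipa, the acid lipase of the lysosome, stood at 388 and 189 CPM (log2 -1.04, -1.08 to -1.002), only just past the 2-fold limit, and inside it with 30 principal components (-0.97) and under scaling by the median gene ratio (-0.94). Of 7850 genes in these cells, 5.36% were lower and 3.59% higher. With the cell filter at 5% in place of 10% mitochondrial UMIs, 7 genes were lower, among 865 Co-Mac and 1612 VD-Mac macrophage-like cells. Of 7435 genes at that filter, 9.79% were lower and 3.2% higher, so that more genes were past the limit in general. With the Gpnmb-led cluster counted as macrophage-like, a choice made after the data were seen, the same number of genes, 3, were lower and the log2 ratio of Fabp5 was -1.14.

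The storage and efflux genes of the macrophage-like cells did not reach the 2-fold limit, but at 5% mitochondrial UMIs 4 of them did, with log2 ratios of -1.03 for Plin2, -1.14 for Soat1, -1.55 for Abca1 and -2.11 for Abcg1, beside the 9.79% of all genes that were lower at that filter. The droplet coat gene Plin2 stood at 229 CPM in Co-Mac and 133 CPM in VD-Mac, a log2 ratio of -0.78 (-0.83 to -0.74). Soat1, the cholesterol esterifying enzyme, stood at 228 and 158 CPM (log2 -0.53). Abcg1 stood at 94.4 and 54.9 CPM (log2 -0.78, -0.86 to -0.71), whereas Abca1 stood at 16.3 and 14.7 CPM (log2 -0.15, -0.30 to 0.00). Apoe was low in both, with 11.8 and 10.5 CPM. Pparg was likewise low, with 11.9 and 9.36 CPM. Fabp4 was under the minimum level, with 282 UMIs in Co-Mac (4.55 CPM) and 7 UMIs in VD-Mac (0.18 CPM). All 9 genes that reached the minimum had a log2 ratio below 0, although Apoe and Pparg lay above 0 under some other settings, and the median was -0.78 against -0.10 for all genes tested in these cells. The 6 monocyte markers summed to 867 CPM in Co-Mac and 183 CPM in VD-Mac macrophage-like cells, resident macrophage markers to 122.5 and 37.4 CPM and dendritic cell markers to 283 and 185 CPM. Neutrophil markers summed to 799 and 1027 CPM and macrophage markers to 1670 and 2808 CPM, and the part of these markers in these ratios was not tested.

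**Figure D1:**
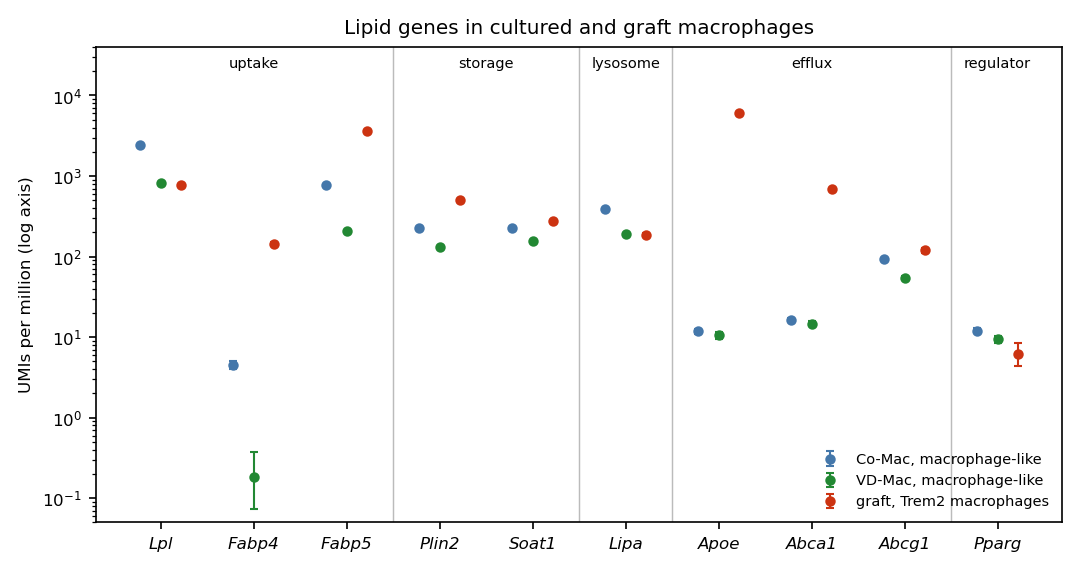
Level of each of the 10 genes in CPM (log axis) in Co-Mac and VD-Mac macrophage-like cells and graft Trem2 macrophage-like cells, 1 library each; bars are 95% Poisson intervals. Lpl and Lipa of the graft cells lie beside the VD-Mac points, while Fabp4, Fabp5, Apoe and Abca1 lie far above both cultures.

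Lpl, Fabp5 and Lipa were lower with VD3 in both macrophage-like clusters, by different factors. In non-cycling cells Fabp5 stood at 722 CPM in Co-Mac and 119 CPM in VD-Mac, a 6.09-fold difference. In cycling cells it stood at 800.1 and 280.3 CPM, a 2.85-fold difference. Lpl differed by 2.90-fold in non-cycling and 3.14-fold in cycling cells. Lipa differed by 2.46-fold in non-cycling cells and by 1.83-fold in cycling cells, below the limit. Lpl was thus lower by a like factor in dividing and resting cells, and Fabp5 by a larger factor in resting cells.

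Dendritic cell-like cells, which made up 2631 Co-Mac and 3295 VD-Mac cells, were the class with the most Fabp5 transcripts among the named culture classes. Fabp5 stood there at 6553 CPM in Co-Mac and 2556 CPM in VD-Mac (log2 -1.36, -1.37 to -1.35), and it was the only gene of the list past the limit in this class. Of 6661 genes in these cells, 2.55% were lower and 2.27% higher. Lpl stood at 311 and 178 CPM (log2 -0.80). Abcg1 (133 and 132 CPM) and Plin2 (75.8 and 77.1 CPM) were level between the cultures. Soat1 (18.4 and 22.9 CPM) had a log2 ratio of 0.32 (0.18 to 0.45), on the other side of 0 from macrophage-like cells.

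In the granulocyte classes more of the genes were called lower. In neutrophil-like cells 6 of the 8 genes that reached the minimum were lower and none higher, where 2.7% of 7636 genes were lower and 1.98% higher. In neutrophil precursor-like cells 6 of 8 were lower and none higher, where 5.48% of 7633 genes were lower and 3.39% higher. The 6 were Lpl, Fabp5, Plin2, Apoe, Abcg1 and Pparg in both classes, with median log2 ratios of -1.18 and -1.32 over the 8 genes. Lpl stood at 1264 CPM in Co-Mac and 365 CPM in VD-Mac neutrophil-like cells, and at 1310 and 362 CPM in neutrophil precursor-like cells. In the same neutrophil-like cells the Trem2 macrophage markers summed to 3904 and 1469 CPM and macrophage markers to 814 and 572 CPM. In the precursor-like cells neutrophil markers summed to 41988 and 72436 CPM and monocyte markers to 2161 and 1185 CPM, and the part of these markers in the levels was not tested. The median neutrophil-like cell held no Lpl UMI, and the top 10% of these cells held 70.0% of the Lpl UMIs in Co-Mac and 89.4% in VD-Mac. In precursor-like cells the top 10% held 34.2% and 53.1%. Mast cell- or basophil-like cells of the same libraries had 15 Lpl UMIs in Co-Mac (23.7 CPM) and 26 in VD-Mac (36.1 CPM). Plin2 differed in neutrophil-like cells, where it stood at 330.1 and 137 CPM, and in precursor-like cells, at 179 and 75.5 CPM. Pparg had its highest culture level in the Co-Mac precursor-like cells, 47.4 CPM, and stood at 17.1 CPM in those of VD-Mac.

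**Figure D2:**
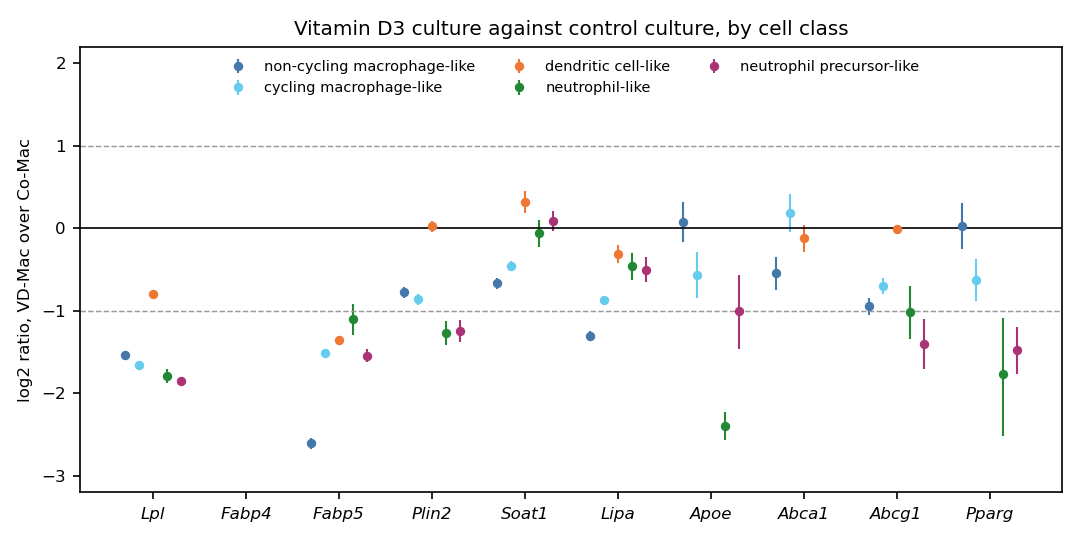
Log2 ratio of VD-Mac to Co-Mac for each gene that reached the minimum level in 5 culture classes (non-cycling and cycling macrophage-like, dendritic cell-like, neutrophil-like and neutrophil precursor-like), with 95% counting intervals and dashed lines at 2-fold. Lpl and Fabp5 lie below 0 in all 5, while Soat1 lies on either side of 0.

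Of the 3569 Apoe UMIs of Co-Mac, 2182 were in neutrophil-like cells and 731 in macrophage-like cells. Of the 1085 of VD-Mac, 329 were in neutrophil-like and 402 in macrophage-like cells. Apoe stood at 478 CPM in Co-Mac neutrophil-like cells, where 218 of 892 cells held an Apoe UMI and the top 10% of cells held 86.5% of the Apoe UMIs. In VD-Mac neutrophil-like cells it stood at 91.2 CPM, with a UMI in 79 of 1022 cells. Mast cell- or basophil-like cells had 301 and 182 CPM, and macrophage-like cells 11.8 and 10.5 CPM. The 2.89-fold lower Apoe over all VD-Mac cells thus stands beside a 1.12-fold difference in macrophage-like cells and a 5.24-fold difference in neutrophil-like cells.

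In the graft, the genes fell into different orders over the cell classes. Of the 10 genes, 5 had their highest level among the graft classes in Trem2 macrophage-like cells: Fabp5, Plin2, Soat1, Lipa and Abca1. Fabp5 stood at 3649 CPM there, at 2368 CPM in resident macrophage-like and at 981 CPM in monocyte-like cells, with intervals that did not overlap. Lipa stood at 184 CPM (174 to 195), and the next class, resident macrophage-like cells, at 80.5 CPM (70.8 to 91.1). Plin2 stood at 498 CPM (481 to 516), with neutrophil-like cells at 456 CPM (422 to 491), so that these neighbours overlapped. Soat1 in Trem2 macrophage-like cells (273 CPM) and monocyte-like cells (249 CPM) also overlapped. The efflux genes did not single out the Trem2 macrophage-like cells. Abca1 stood at 688 CPM (668 to 708) in them and at 663 CPM (635 to 693) in resident macrophage-like cells. Apoe stood at 6136 CPM (6076 to 6196) and at 6238 CPM (6150 to 6326), again with overlapping intervals. Monocyte-like cells held 405 CPM of Abca1 and 2448 CPM of Apoe.

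Other cells of the graft held the highest level of the remaining genes. Fabp4, which capillary endothelium uses for fatty acid transport, stood at 11332 CPM in the 25 endothelial-like cells, against 146 CPM in fibroblast-like and 143 CPM in Trem2 macrophage-like cells. Pparg stood at 101 CPM in the endothelial-like cells and at 13.8 CPM in monocyte-like cells, the next class. Lpl stood at 856 CPM (826 to 887) in fibroblast-like cells and at 775 CPM (754 to 797) in Trem2 macrophage-like cells. Abcg1 stood highest in neutrophil-like cells, at 183 CPM (161 to 206), followed by monocyte-like cells at 132 CPM. T cell-like cells were taken as a class that should lack most of these transcripts. This class joins a cluster of 178 cells that scored highest for NK cell markers, with T cell genes also among its leading genes, and a T cell cluster of 123 cells. This class held 3.71 CPM of Lpl, 14.3 CPM of Fabp4, 203 CPM of Fabp5, 105 CPM of Apoe and 22.2 CPM of Abca1. It also held 63.5 CPM of Plin2, 69.4 CPM of Soat1, 22.2 CPM of Lipa, 56.7 CPM of Abcg1 and 4.24 CPM of Pparg. The top 10% of its cells held 85.9% of its Fabp5 UMIs, and the part of free RNA in these levels was not tested.

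**Figure D3:**
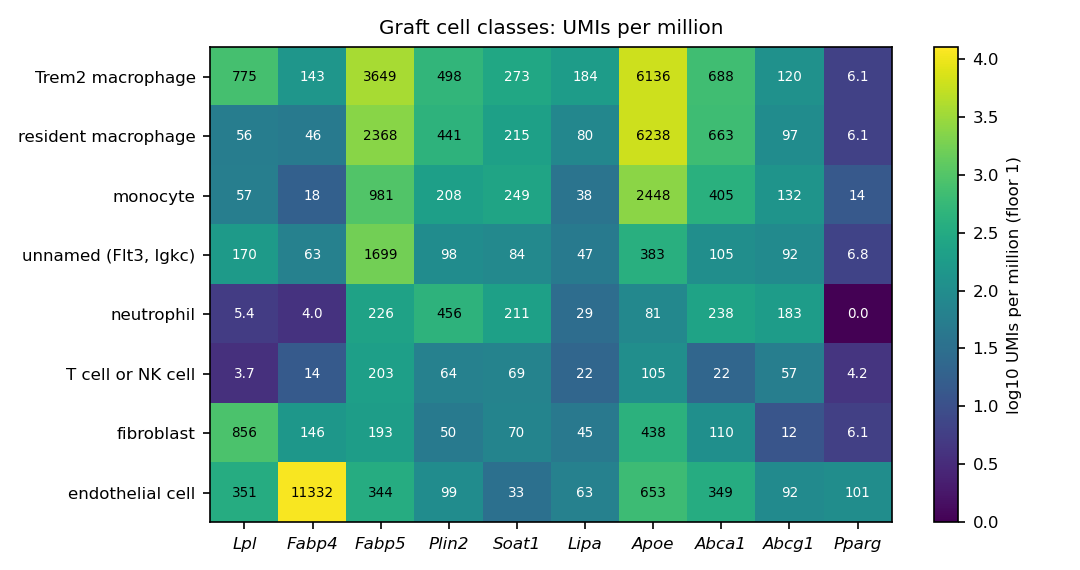
Level of each gene (columns) in 8 graft cell classes (rows), printed in CPM and coloured by log10 CPM with a floor of 1. Fabp5, Plin2, Soat1, Lipa and Abca1 are highest in Trem2 macrophage-like cells, Apoe in resident macrophage-like cells, Fabp4 and Pparg in endothelial-like cells, Lpl in fibroblast-like cells and Abcg1 in neutrophil-like cells.

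Against the other monocyte-lineage cells of the same graft, Trem2 macrophage-like cells held more of the uptake genes and of Lipa. Lpl stood at 775 CPM in Trem2 macrophage-like and 86.0 CPM in the other cells, a 9.02-fold difference (log2 3.17, 3.06 to 3.29). Fabp4 stood at 143 and 40.1 CPM (3.56-fold), Lipa at 184 and 56.2 CPM (3.28-fold) and Fabp5 at 3649 and 1681 CPM (2.17-fold). These were the 4 genes called higher of 9 that reached the minimum level, with none lower. Fabp5 was inside the limit under 5 other settings, the lowest log2 ratio being 0.72, and that of Lpl ranged from 1.97 with a gate on Trem2 UMIs to 4.92 after thinning. Of 7653 genes, 4.05% were higher and 8.69% lower. The median log2 ratio was 0.91 over the 9 genes and -0.17 over all genes tested. The 4 were the 3 uptake genes and the lysosomal lipase.

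Against these 780 cells the storage and efflux genes differed less. Plin2 stood at 498 and 265 CPM (1.88-fold), Soat1 at 273 and 193 CPM (1.41-fold), Apoe at 6136 and 3305 CPM (1.86-fold) and Abca1 at 688 and 422 CPM (1.63-fold). Abcg1 was the closest, at 120 and 109 CPM (1.11-fold). Pparg was under the minimum, with 40 and 77 UMIs. The comparison with resident macrophage-like cells alone left Lpl (13.9-fold), Fabp4 (3.08-fold) and Lipa (2.29-fold) past 2-fold, and Fabp5 at 1.54-fold. Apoe (log2 -0.02, -0.05 to 0.00) and Abca1 (0.05, -0.02 to 0.13) lay at the same level in these 2 macrophage classes, as drawn here, within counting error. The resident macrophage-like class depended on the setting. It held 298 cells here, 118 at resolution 0.8, 113 with the highest doublet scores removed and 323 with the filter on UMIs. The comparison with it was not repeated under those settings. Against monocyte-like cells 6 of the 10 genes were higher and 1 lower, where 9.98% of 7414 genes were higher and 8.61% lower. That class was led by Hbb-bs, and its erythroid markers summed to 5745 CPM against 39.6 CPM in Trem2 macrophage-like cells. Its macrophage markers summed to 5567 CPM and its monocyte markers to 2082 CPM, and the part of these in the ratios was not tested. Lpl was 13.7-fold higher, Fabp4 7.93-fold, Lipa 4.81-fold and Fabp5 3.72-fold. Apoe (6136 and 2448 CPM, 2.51-fold) and Plin2 (498 and 208 CPM, 2.40-fold) were also past the limit there, and Pparg was 2.25-fold lower (6.14 and 13.8 CPM, from 40 and 43 UMIs).

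Markers of other cells that use these genes were measured in the same cells. The adipocyte markers summed to 0.61 CPM in Trem2 macrophage-like cells, with 2 of 6 seen and Adipoq, Plin1, Cidec and Lep at 0. The endothelial markers summed to 41.8 CPM, with all 5 seen, against 4145 CPM in endothelial-like cells, whose Fabp4 level was 11332 CPM, and their part in the Fabp4 level of 143 CPM was not tested. The fibroblast markers summed to 69.4 CPM, with all 6 seen, against 60685 CPM in fibroblast-like cells.

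Set gene by gene beside the VD-Mac macrophage-like cells, the graft Trem2 macrophage-like cells were close in Lpl and Lipa and higher in most other genes. Of the 9 genes that reached the minimum level, 6 were called higher in the graft cells and none lower. Of 8168 genes, 18.5% were higher and 21.7% lower, so that large differences were common between graft and culture. These libraries also differed in tissue, digestion and depth, which cannot be told apart from the condition. With the Gpnmb-led culture cluster counted as macrophage-like, 5 were higher, since Abcg1 was then inside the limit (log2 0.82), and the log2 ratio of Fabp5 was 2.99. Against the 406 VD-Mac cells of that cluster alone it was 1.501 for Fabp5, 0.56 for Lpl and 0.11 for Abcg1. The median log2 ratio was 1.90 over the 9 genes and -0.13 over all genes tested.

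The uptake genes went different ways. Lpl stood at 775 CPM in the graft cells and 826 CPM in VD-Mac, a log2 ratio of -0.09 (-0.13 to -0.05). Fabp5 stood at 3649 and 206 CPM, a 17.8-fold difference (log2 4.15, 4.11 to 4.19). Fabp4 stood at 143 CPM, from 931 UMIs, and at 0.18 CPM, from 7 UMIs, a log2 ratio of 9.61 (8.56 to 10.93). Lpl was thus at nearly the same level in both macrophages, while the fatty acid binding proteins were not. With the cell filter at 5% mitochondrial UMIs, which changed the make-up of the culture classes, the log2 ratio of Lpl was 1.25.

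Among the storage genes Plin2 was 3.74-fold higher in the graft cells, at 498 and 133 CPM (log2 1.90, 1.84 to 1.97). Soat1 stood at 273 and 158 CPM, a 1.73-fold difference that missed the limit. Lipa stood at 184 CPM and 189 CPM, a log2 ratio of -0.04 (-0.13 to 0.05). Lipa was thus, with Lpl, the gene closest between the 2 settings, although at the 5% mitochondrial filter its log2 ratio was 1.47.

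The efflux genes were all higher in the graft cells, by very different factors. Apoe stood at 6136 and 10.5 CPM, a 584-fold difference (log2 9.19, 9.05 to 9.33). Abca1 stood at 688 and 14.7 CPM, a 46.6-fold difference (log2 5.54, 5.42 to 5.67). Abcg1 stood at 120.4 and 54.9 CPM, a 2.19-fold difference (log2 1.13, 1.01 to 1.25). Apoe in graft T cell-like cells stood at 105 CPM, above the VD-Mac level of 10.5 CPM and well under that of the Trem2 macrophage-like cells. Pparg was under the minimum on both sides, with 6.14 and 9.36 CPM. Against all kept VD-Mac cells, which include the Fabp5-rich dendritic cell-like cells, Fabp5 was 2.74-fold higher in the graft cells (3649 and 1330 CPM). Soat1 was past the limit there (3.16-fold) and Abcg1 was not (1.36-fold).

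The graft cells were also set beside the untreated culture. Against Co-Mac macrophage-like cells the graft Trem2 macrophage-like cells were higher in 5 genes and lower in 2, where 15.6% of 8201 genes were higher and 22.6% lower. Lpl was 3.09-fold lower in the graft cells (775 and 2394 CPM) and Lipa 2.11-fold lower (184 and 388 CPM). Pparg stood at 6.14 and 11.9 CPM, just inside the limit. Apoe (521-fold), Abca1 (42.1-fold), Fabp4 (31.4-fold), Fabp5 (4.73-fold) and Plin2 (2.17-fold) were higher. By these levels the VD3 culture was nearer to the graft cells than the untreated one in Lpl, Lipa and the low Pparg, and further away in Fabp4, Fabp5, Plin2, Soat1 and Abcg1. It was also further away in Apoe and Abca1, but there the 2 cultures hardly differed (log2 ratio of VD-Mac to Co-Mac -0.16 and -0.15). In the Gpnmb-led culture cluster Abcg1 was nearer to the graft cells in VD-Mac. The order in Lpl and Lipa turned with the cell filter. At 5% mitochondrial UMIs the log2 ratio of graft to VD-Mac was 1.25 for Lpl and 1.47 for Lipa, and that of VD-Mac to Co-Mac -1.96 and -1.89, which places Co-Mac nearer for both genes. The order in Apoe turned as well, with a log2 ratio of VD-Mac to Co-Mac of 0.08 at resolution 0.3, 0.17 without integration and 0.50 with the highest doublet scores removed. Over all kept culture cells Lipa, at 229 CPM in Co-Mac and 98.1 CPM in VD-Mac, was also nearer to the graft level of 184 CPM in Co-Mac. Both comparisons use the same graft cells.

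A like mean level of Lpl did not mean a like distribution over cells. With every cell thinned to 2000 UMIs, Lpl was found in 27.8% (23.0 to 33.0) of the Trem2 macrophage-like cells and in 60.7% (58.4 to 63.0) of VD-Mac macrophage-like cells. In Co-Mac macrophage-like cells the share was 92.4%. The shares cover 327, 1830 and 2109 cells, after 4, 2 and 1 shallower cells were left out. Graft T cell-like cells, with a median of 5552 UMIs per cell against 16436 in Trem2 macrophage-like cells, gave a thinned share of 0.34% for Lpl. The top 10% of Trem2 macrophage-like cells held 75.4% of their Lpl UMIs, whereas the top 10% held 35.1% in VD-Mac and 25.5% in Co-Mac macrophage-like cells. The median cell had no Lpl UMI in the graft class, 581 CPM in VD-Mac and 2268 CPM in Co-Mac. Lpl was thus concentrated in few graft cells and found in most cultured ones.

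Abca1, Apoe, Fabp5, Plin2 and Soat1 were found in more of the graft cells than Lpl, and Lipa, Abcg1, Fabp4 and Pparg in fewer. The top 10% of Trem2 macrophage-like cells held 28.2% of the Abca1 UMIs and 80.7% of the Fabp4 UMIs. Abca1 was found in 67.9% of thinned Trem2 macrophage-like cells and 2.62% of VD-Mac macrophage-like cells. Apoe was found in 78.9% and 1.97%, with 12.9% of graft T cell-like cells. Fabp5 was found in 80.4% and 21.1%, with 12.5% of graft T cell-like cells. Plin2 was found in 56.9% and 23.4%, and Soat1 in 41.9% and 27.9%. Lipa, like Lpl, was found in fewer graft cells, 21.4% against 30.1%, at a like mean level. Fabp4 was found in 13.1% of Trem2 macrophage-like cells and in 0 of 1830 VD-Mac macrophage-like cells. The exact binomial interval reaches 0.20%, which limits cells with a UMI at that depth and not cells that express the gene, and before thinning 7 of 1832 held a Fabp4 UMI. Abcg1 was found in 18.0% and 9.95%, and Pparg in 1.53% and 1.69%.

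**Figure D4:**
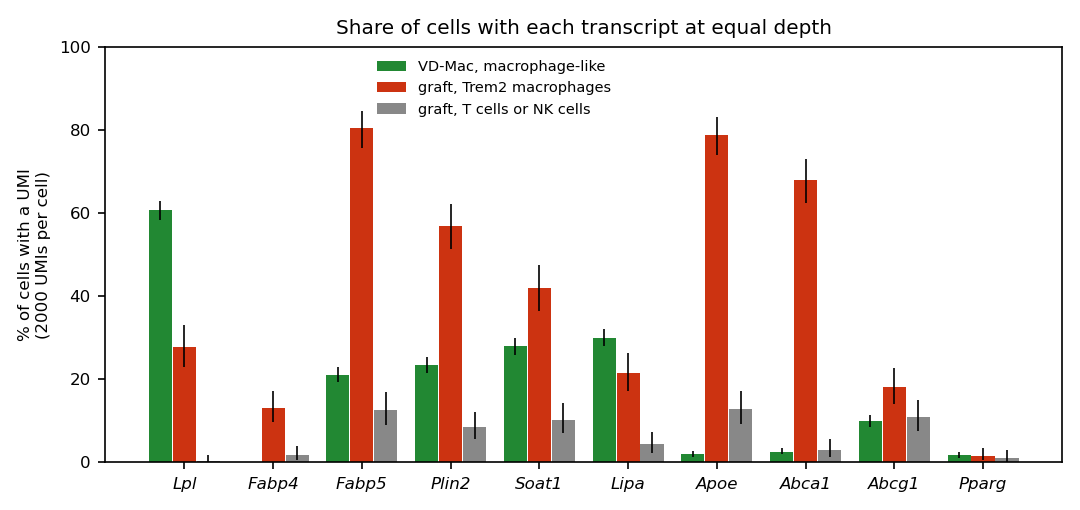
Share of cells (%) with at least 1 UMI of each gene after every cell was thinned to 2000 UMIs, with exact binomial 95% intervals, in VD-Mac macrophage-like, graft Trem2 macrophage-like and graft T cell-like cells. Lpl is found in 60.7% of the VD-Mac and 27.8% of the graft macrophages, while Apoe (1.97% and 78.9%) and Abca1 (2.62% and 67.9%) stand the other way round.

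The Trem2 macrophage-like cells divided along Lpl and Apoe. When they were clustered again, still without the lipid genes, 4 sub-clusters were found. Sub-cluster 1 (92 cells), led by Lpl, Cav1 and Ctsk, held 1679 CPM of Lpl, 308 CPM of Lipa and 2761 CPM of Apoe. Sub-cluster 0 (121 cells), led by Vcam1, Gas6 and Ccl8, held 125 CPM of Lpl, 128 CPM of Lipa and 10012 CPM of Apoe. Sub-cluster 2 (85 cells), led by Ccl5, Nos2 and interferon-induced genes, held 176 CPM of Lpl and 4756 CPM of Apoe. The 33 cells of sub-cluster 3 were shallow, with a median of 3730 UMIs, and held 3217 CPM of Lpl, 865 CPM of Plin2 and 1628 CPM of Apoe. Macrophage markers of other sets moved with this split. The resident macrophage markers summed to 3014 CPM in sub-cluster 0, 718 CPM in sub-cluster 1, 2226 CPM in sub-cluster 2 and 1423 CPM in sub-cluster 3. The Trem2 macrophage markers summed to 10250, 35132, 32932 and 52575 CPM in the same order, and their part in the split was not tested. Trem2 itself ran in another order, at 644, 725, 475 and 359 CPM. Across the 4 sub-clusters, the order of Lpl was the reverse of the order of Apoe. Without the 33 shallow cells the log2 ratio of Lpl was 3.06 against the other monocyte-lineage cells and -0.21 against VD-Mac. At resolution 0.8 in place of 0.5, 5 sub-clusters were found, and the additional one (19 cells, led by F5, Bmp2 and Saa3) held 14.8 CPM of Lpl and 13241 CPM of Apoe.

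Plin2 and Abca1 varied less between the sub-clusters. Plin2 ranged from 442 to 865 CPM and Abca1 from 484 to 948 CPM, whereas Lpl ranged from 125 to 3217 CPM. Fabp5 ranged from 974 to 4379 CPM and was highest in sub-cluster 0. Over the 331 cells Spearman's rho was -0.314 between Lpl and Apoe and 0.323 between Apoe and Abca1. It was 0.345 between Lpl and Lipa and 0.416 between Fabp4 and Fabp5. These cells share 1 library, and Fabp5 and Lipa also correlated with the UMIs per cell (0.420 and 0.377), so the values are a description. In the cultures, rho between Lpl and Lipa was 0.531 in Co-Mac and 0.269 in VD-Mac macrophage-like cells.

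**Figure D5:**
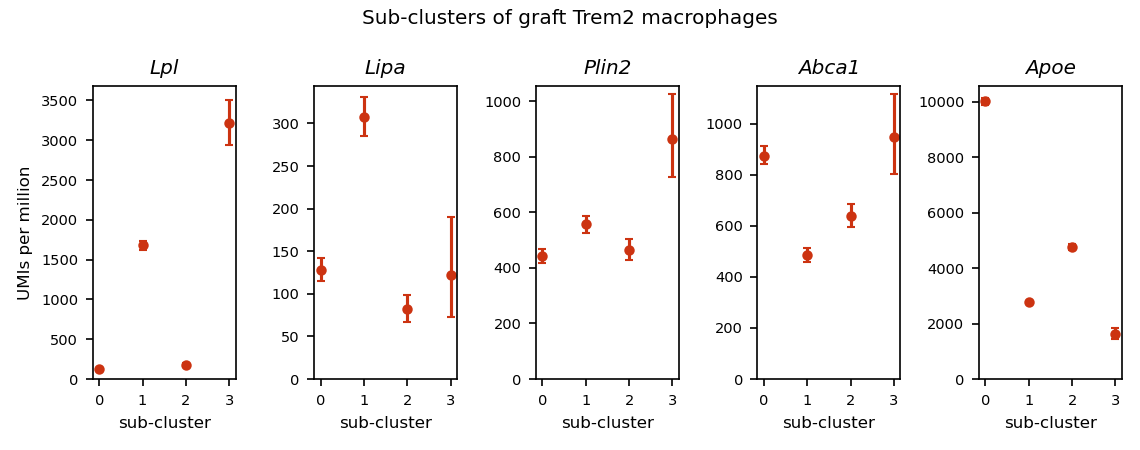
Level of Lpl, Lipa, Plin2, Abca1 and Apoe in CPM (each panel with its own linear axis from 0) in sub-clusters 0 to 3 of the 331 graft Trem2 macrophage-like cells, with 95% Poisson intervals. Lpl spans 125 to 3217 CPM and is lowest where Apoe is highest (10012 CPM), whereas Abca1 stays between 484 and 948 CPM.

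The 46 other lipid genes give the setting of these differences. With VD3, 1 of the 35 that reached the minimum level was higher and 7 were lower in macrophage-like cells, beside 3.59% and 5.36% of all genes. The higher one was Dgat1, which makes triglyceride for storage, at 122 CPM in VD-Mac and 13.3 CPM in Co-Mac (9.17-fold). Among those lower was the fatty acid receptor Cd36 (68.7 and 284 CPM). The lipolysis gene Mgll (35.6 and 114 CPM) and the sterol regulator Srebf2 (30.0 and 74.8 CPM) were also lower. By role, 2 of 10 uptake, 2 of 8 storage and droplet lipolysis, none of 6 lysosomal, none of 4 efflux and 3 of 7 regulator genes were lower. Over all kept cells, 2 of 35 were higher and 8 lower, beside 2.16% and 4.63% of all genes. Npc2, which moves cholesterol out of the lysosome, stood at 1832 CPM in VD-Mac and 888 CPM in Co-Mac.

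Against the other monocyte-lineage cells of the graft, Trem2 macrophage-like cells were higher in 6 of 38 and lower in 4, beside 4.05% and 8.69% of all genes, so that the lower count was near the background. Of the 11 uptake genes tested, 5 were among the 6. Cd36 stood at 629 and 70.2 CPM (8.97-fold) and Msr1, a scavenger receptor, at 290 and 105 CPM (2.75-fold). Psap, whose product yields activators of lysosomal lipid breakdown, stood at 6323 and 2693 CPM. Of the 8 storage and droplet lipolysis genes 3 were lower, Dgat1 among them at 33.6 and 87.3 CPM. The study had linked its Trem2 macrophages with lipid genes on these samples, so these counts are not independent of that choice.

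Against VD-Mac macrophage-like cells, 19 of 39 were higher and 5 lower, beside 18.5% and 21.7% of all genes. Of the 7 efflux genes tested, 5 were higher and 1 lower, with a median log2 ratio of 3.16. Of the 11 uptake genes tested, 8 were higher and 1 lower. Pltp, a phospholipid transfer protein and known LXR target, stood at 443 and 8.24 CPM (53.8-fold). Mylip, a further known LXR target, stood at 87.4 and 5.83 CPM. Nr1h3, which encodes LXR alpha and was picked out after its values were seen, stood at 36.4 and 0.89 CPM (40.9-fold). Among storage genes Hilpda, which restrains lipolysis in hypoxia, stood at 607 and 18.9 CPM, and Dgat1 was lower in the graft cells, at 33.6 and 122 CPM. Cd36 stood at 629 and 68.7 CPM (9.16-fold) and the cholesterol transporter Npc1 of the lysosome at 166 and 51.9 CPM. Of the 3 macrophage classes compared, VD-Mac thus had the most Dgat1 and the least Cd36.

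The genes whose levels ran most like each of the 10 were sought over 27 cell classes of the 3 libraries, by Pearson's r of log2 CPM with a pseudocount of 5. For Lpl they were Cd302 (0.836) and Mfsd12 (0.818), and for Lipa Egr2 (0.853) and again Mfsd12 (0.829). For Fabp4 they were Ctsk (0.914) and Vasn (0.913), and for Fabp5 Cxcl16 (0.889) and Tspan17 (0.844). For Plin2 they were Atp6v1e1 (0.869) and Cstb (0.856), and for Soat1 Wdfy2 (0.926) and Slc2a1 (0.923). For Apoe they were Rhob (0.920) and Ecm1 (0.917), for Abca1 Trim25 (0.929) and Impact (0.927), and for Abcg1 Cd274 (0.902) and Slc26a2 (0.864). For Pparg they were Fcor (0.816) and Strap (0.772). Classes of 1 library share its depth and handling, so these values describe likeness alone.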

How the data were processed

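Single-cell libraries of the cultures and of the graft were sequenced by the study with 10x Genomics chemistry. The deposited files hold UMI counts per gene and cell, which the authors made with Cell Ranger, and the submitters' processing notes also name Seurat 3.1.1. The labels give the build mm9 and the study's methods a human build. Of the 31053 gene identifiers, 30934 are in the GRCm38 annotation used here for positions. Hashtag counts of the graft library were not used, since no map from tags to mice was found in the sources used here.

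Barcodes with at least 300 genes, under 100000 UMIs and under 10% mitochondrial UMIs were kept, which left 7257 of 7866 Co-Mac, 8825 of 9794 VD-Mac and 2144 of 2644 hSTSG barcodes. Cells were clustered in Seurat 5.3.0 (2000 variable genes without the lipid genes, 15 components, resolution 0.5), with the 2 cultures integrated. A cluster was named where its mean marker score was at least 0.5 and led the other sets, and a culture cluster counted as macrophage-like only where the general macrophage set also reached 0.5, which left out 1 cluster whose own best set was the Trem2 set. A graft cluster of 145 cells that scored highest for the B lineage stayed unnamed, since its leading genes held more markers of another class, as did a graft cluster of 38 cells of low depth that scored highest for neutrophils with no such marker leading. The graft T and NK cell clusters were joined as T cell-like. Scrublet (scanpy 1.11.5) called 1, 0 and 9 doublets, so its automatic threshold had not worked, and doublets were kept except in an alternative that removed the highest scores.

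UMIs were summed over the cells of a class and divided by the class total. Intervals cover counting error alone, since each condition was 1 library, and no difference was tested against replicates. On simulated counts for VD-Mac against Co-Mac over 7445 genes, 200 of 200 genes changed 4-fold were recovered. The simulation held counting error alone and changes well past the 2-fold limit, so this recovery followed from its design. It checks the calculation and does not bear on genes near 2-fold or on variation between cells or libraries. Named genes were all 10, and of the other lipid genes the 2 with the largest ratio in each role and direction among those past 2-fold with at least 50 CPM, of which 1 is not reported here. The genes, lists and class names were chosen with earlier results of these data known, and integration and the naming rule were settled after clusters had been seen. Alternatives were the cell filters, resolution, components, integration, doublets, scaling, mean over cells, thinning, a gate on Trem2 UMIs and, chosen after the data were seen, counting that cluster as macrophage-like.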

Additional observations from a re-analysis of the deposited data

Results flagged for a closer look

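The sign of the Abcg1 difference between VD-Mac and Co-Mac was not the same in every culture class. The log2 ratio was -1.01 (112 and 286 UMIs) in neutrophil-like cells and -1.40 (113 and 487 UMIs) in neutrophil precursor-like cells. In mast cell- or basophil-like cells it was 1.81 (0.79 to 2.98), from 40 UMIs in 74 VD-Mac cells and 10 UMIs in 58 Co-Mac cells. The VD-Mac UMIs were in 11 cells and the top 10% of cells held 90% of them, while the Co-Mac UMIs were in 8 cells and the top 10% held 70%. The difference between the classes was not tested, since each class comes from the same 2 libraries.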

How the results depend on the processing

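No paired analysis was made, since each condition was 1 library and the hashtag counts of the graft library were not used. The alternatives were run for the 10 genes in 5 comparisons, and there no value past 2-fold in the report changed sign. Values in the other classes and of the other lipid genes had no such alternatives, apart from the minimum level. Of the values for the 10 genes, 53 of 53 kept their sign in VD-Mac against Co-Mac over all cells, 103 of 108 in macrophage-like and 72 of 77 in dendritic cell-like cells. In Trem2 macrophage-like cells, 103 of 108 kept it against the other monocyte-lineage cells and 139 of 153 against VD-Mac. The exceptions in the last were Lpl (log2 -0.62 to 1.25) and Lipa (-0.46 to 1.47), both near 0 in the report and past 2-fold at 5% mitochondrial UMIs, with the opposite sign. Apoe against the other monocyte-lineage cells ranged from -0.01 at resolution 0.8, where the Trem2 macrophage-like class had 228 cells, to 1.06. At 5% mitochondrial UMIs, 7 genes were lower in VD-Mac macrophage-like cells in place of 3, beside 9.79% of all genes in place of 5.36%. Without integration, added after the data were seen, 2 of 7 genes were lower in dendritic cell-like cells in place of 1, beside 2.71% of all genes. The genes past 2-fold between Trem2 macrophage-like and other monocyte-lineage cells were 975, but 1551 after thinning and 541 with the Trem2 gate. At a minimum of 50 CPM, 4 of 17 other lipid genes were lower in VD-Mac macrophage-like cells in place of 7, beside 6.12% of all genes. In Trem2 macrophage-like cells at that minimum, 12 of 21 were higher than in VD-Mac in place of 19 and 1 was lower in place of 5, beside 23.6% and 18.9% of all genes. Against the other monocyte-lineage cells 1 of 21 was lower in place of 4, beside 7.59%. Fewer genes were tested at that minimum. The causes of the other shifts were not tested. Classes of few cells limit the precision, such as the 25 endothelial-like cells.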

Other observations

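The culture cluster led by Gpnmb and Cd36, whose own best set was the Trem2 macrophage markers and which was kept out of the macrophage-like class, held Lpl, Fabp5 and Plin2 at levels between those of the macrophage-like and dendritic cell-like cells. Lpl stood there at 1454 CPM in Co-Mac and 527 CPM in VD-Mac, and Fabp5 at 2732 and 1289 CPM. Lipa stood at 304 and 135 CPM, Plin2 at 206 and 111 CPM, and Abcg1 at 145 and 112 CPM. Apoe was low, at 21.6 and 5.69 CPM, and Abca1 stood at 23.5 and 20.6 CPM. An unnamed culture cluster had the highest Fabp5 level of the cultures, 8402 CPM in Co-Mac and 3178 CPM in VD-Mac, with Lpl at 113 and 78.9 CPM.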
